A study of Mus musculus and Homo sapiens with 41 samples.

Results

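H2AK119ub peak lists of mouse embryonic stem cells (mESCs) with the wild-type (WT) genotype were compared between 3 libraries from cells that received a control siRNA (siNC) and 3 libraries from cells that received none, called untransfected here. The 6 libraries were chosen by their labels from the 41 of the series, and all 6 were used. H2AK119ub, histone H2A with ubiquitin on a lysine of its tail end, was mapped by CUT&Tag, in which an antibody guides a transposase to the marked chromatin so that the DNA there is cut and sequenced. The series also holds H2AK119ub libraries of Tet2 knockout (KO) mESCs, untransfected or with siNC, or with an siRNA against Mbd6 (siMbd6) or Nsun2 (siNsun2). It further holds BAP1 libraries of WT mESCs and libraries of the human K-562 line and of haematopoietic stem and progenitor cells (HSPCs) from mice, of which the WT ones used here carried a control shRNA (shNC). The comparison asks how closely the landscape of one cell line repeats without and with a control siRNA, and which genes differ.

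Both groups carry the same genotype (WT) and come from the same line, one gift line whose pluripotency was tested elsewhere by chimaera formation. The cells were grown in serum medium with LIF, the GSK3 inhibitor CHIR99021 and the MEK inhibitor PD0325901. Both used the same antibody. The siNC cells were transfected by lipofection with RNAiMAX. The sources used here give no dose of siRNA, no time of harvest, and no mock-transfected group. Nor do they say whether the groups were grown and processed together, so the siRNA, the reagent and the date of the experiment cannot be told apart in these 6 libraries. The study calls its replicates biological, and the labels do not say whether they are separate cultures, so each p-value measures only the spread between these samples.

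Polycomb repressive complex 1 (PRC1) places ubiquitin on H2A, and BAP1, the catalytic subunit of the PR-DUB complex, removes it. In embryonic stem cells the mark is best known at CpG islands of silent developmental genes such as the HOX clusters, where it lies together with H3K27me3. A control siRNA has no intended target, but it engages the RNA interference machinery, and foreign RNA and lipid can be met by innate sensing and stress responses.

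The mark lay on CpG-rich sequence in every library, and 6 stretches of 200 bases are shown for what the lists have in common and where they part. Each was read from the GRCm38 (mm10) genome on the plus strand outside annotated exons, in lower case with every CpG in capitals. The first 3 come from regions with a peak in all 6 libraries, at Neurog1 (a neuronal fate gene), Pax6 (an eye and forebrain regulator) and Nanog (a pluripotency factor). The fourth comes from a repeat without any CpG that was also covered in all 6 libraries. The fifth and sixth come from the regions with the largest difference among those found in all 3 libraries of one group and in none of the other.
Neurog1, start of the gene: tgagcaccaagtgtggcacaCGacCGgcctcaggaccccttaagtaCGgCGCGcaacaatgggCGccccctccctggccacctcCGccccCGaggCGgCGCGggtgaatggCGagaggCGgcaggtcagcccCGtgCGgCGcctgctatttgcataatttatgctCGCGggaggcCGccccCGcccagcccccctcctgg
Pax6, upstream: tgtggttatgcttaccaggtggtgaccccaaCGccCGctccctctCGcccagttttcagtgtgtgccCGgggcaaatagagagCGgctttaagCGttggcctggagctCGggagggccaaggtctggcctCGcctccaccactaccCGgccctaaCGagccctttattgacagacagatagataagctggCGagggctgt
Nanog, upstream: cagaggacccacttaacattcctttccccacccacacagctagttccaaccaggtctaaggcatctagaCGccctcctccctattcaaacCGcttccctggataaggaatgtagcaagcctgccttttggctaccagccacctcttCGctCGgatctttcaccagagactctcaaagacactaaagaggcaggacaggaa
Repeat region on chromosome 17: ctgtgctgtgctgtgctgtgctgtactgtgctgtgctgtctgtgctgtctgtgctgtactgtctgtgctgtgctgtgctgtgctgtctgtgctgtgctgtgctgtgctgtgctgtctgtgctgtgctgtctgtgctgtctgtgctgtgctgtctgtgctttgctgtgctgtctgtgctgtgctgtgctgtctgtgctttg
Region of the siNC libraries only, in Lmtk2: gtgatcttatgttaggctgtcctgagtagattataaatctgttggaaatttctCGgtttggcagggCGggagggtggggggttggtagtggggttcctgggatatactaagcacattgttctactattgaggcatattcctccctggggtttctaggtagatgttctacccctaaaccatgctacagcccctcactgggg
Region of the untransfected libraries only, in Rab3il1: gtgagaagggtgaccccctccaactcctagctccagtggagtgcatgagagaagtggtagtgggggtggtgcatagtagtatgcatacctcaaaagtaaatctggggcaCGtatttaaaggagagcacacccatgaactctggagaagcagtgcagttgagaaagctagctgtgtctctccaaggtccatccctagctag

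The Neurog1 stretch, chr13:56252164-56252363, holds 20 CpG and lies beside the start of the gene, without overlapping an annotated gene. The Pax6 stretch, chr2:105666762-105666961, holds 11 CpG and lies in an intron of the antisense gene Pax6os1. The Nanog stretch, chr6:122702613-122702812, holds 4 CpG and is intergenic. The repeat stretch, chr17:13551803-13552002, holds 0 CpG, and all 200 of its bases are soft-masked as repeat, in introns of 2 annotated long non-coding RNAs. The siNC-only stretch, chr5:144183516-144183715, is intronic in Lmtk2 (a membrane-bound kinase) and holds 2 CpG, whereas the untransfected-only stretch, chr19:10018578-10018777, is intronic in Rab3il1 (an exchange factor for a Rab GTPase) and holds 1.

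The extent of the mark did not separate the groups. The untransfected libraries covered 9.66, 15.3 and 16.2 Mb in 24913, 36017 and 37371 peaks. The siNC libraries covered 10.0, 17.0 and 16.1 Mb in 24360, 37392 and 35509 peaks. In both groups replicate 1 was the smallest list and the other two stood close together, so the ranges overlapped almost entirely. The mean was 13.7 ± 3.55 Mb (SD, n = 3) untransfected and 14.4 ± 3.79 Mb (SD, n = 3) with siNC, a difference of 0.06 on the log2 scale (exact two-sided permutation test, p = 0.6; the smallest p that 3 against 3 allows is 0.1). The 95% interval of the ratio of siNC to untransfected ran from 0.544 to 2.00. Without untransfected replicate 1 the log2 difference turned to −0.17. It also turned to −0.08 without siNC replicate 2 and to −0.04 without siNC replicate 3.

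**Figure D1:**
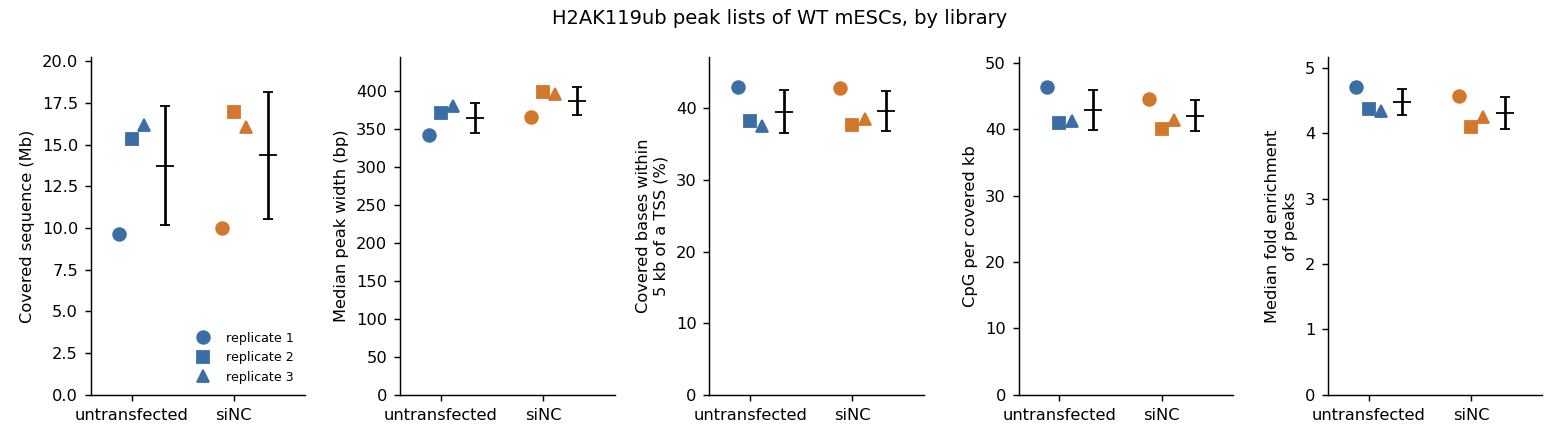
Each panel plots one measure of the H2AK119ub peak lists, with 1 point per library (circle, square and triangle for replicates 1, 2 and 3) and the mean with SD of each group (n = 3) beside the points. The y axes give covered Mb, median peak width in bp, percent of covered bases within 5 kb of a TSS, CpG per covered kb, and median fold enrichment of the peaks; replicate 1 of both groups has the least covered sequence, 9.66 and 10.0 Mb, and the highest CpG density, 46.3 and 44.6 per kb.

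The 2 groups also overlapped in the kind of sequence covered. CpG density was 46.3, 41.0 and 41.3 per kb in the untransfected libraries and 44.6, 40.1 and 41.4 per kb with siNC, against 8.26 per kb in the genome. Between 37.5% and 42.9% of covered bases in each of the 6 libraries lay within 5 kb of the transcription start site (TSS) of a protein-coding gene, where 7.42% of the genome lies. Soft-masked repeats made up 19.1% to 21.9% of covered bases, against 36.4% of the genome. GC content ranged from 57.6% to 59.1%, against 41.7%. The median peak was 343, 371 and 380 bp wide untransfected and 366, 399 and 396 bp wide with siNC, so each siNC library was 16 to 28 bp wider than the untransfected library of the same number, with a mean difference of 22.3 bp (p = 0.3 in an exact two-sided permutation test, adjusted p = 0.8 over 8 measures). Without untransfected replicate 1 the mean difference was 11.5 bp. The median fold enrichment of peaks over the local background was 4.47 ± 0.202 untransfected and 4.30 ± 0.245 with siNC (SD, n = 3), a difference of −0.168 that was −0.0521 without untransfected replicate 1, −0.0619 without siNC replicate 2 and −0.302 without siNC replicate 1. Of the 8 measures tested, none had an adjusted p below 0.8 in the exact permutation tests. Peaks on the Drosophila spike-in chromatin numbered 42, 63 and 59 untransfected and 47, 71 and 61 with siNC, again the fewest in replicate 1 of each group.

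The overlap between libraries of different groups was close to that within a group, and 1 of the 9 pairs between groups fell below the lowest pair within a group. The Jaccard index, bases covered in both lists divided by bases covered in either, was 0.431, 0.421 and 0.508 for the 3 pairs of untransfected libraries and 0.425, 0.435 and 0.512 for the 3 pairs of siNC libraries. The 9 pairs of an untransfected with a siNC library had indices from 0.411 to 0.511, the lowest of them between untransfected replicate 1 and siNC replicate 2. The mean was 0.455 within groups and 0.465 between them, so the within-group mean was not the higher one (exact one-sided permutation test, p = 0.5). The lower indices were those of replicate 1. The pairs made only of replicates 2 and 3 reached 0.503 to 0.511 between groups and 0.508 to 0.512 within a group, while the 8 pairs of a replicate 1 with a replicate 2 or 3 had indices from 0.411 to 0.441. When every library was cut to its 24360 strongest peaks, the same 8 pairs averaged 0.463 and the pairs between groups averaged 0.484. No library was a copy of another, since a pair shared between 2 and 11 peaks with identical coordinates.

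**Figure D2:**
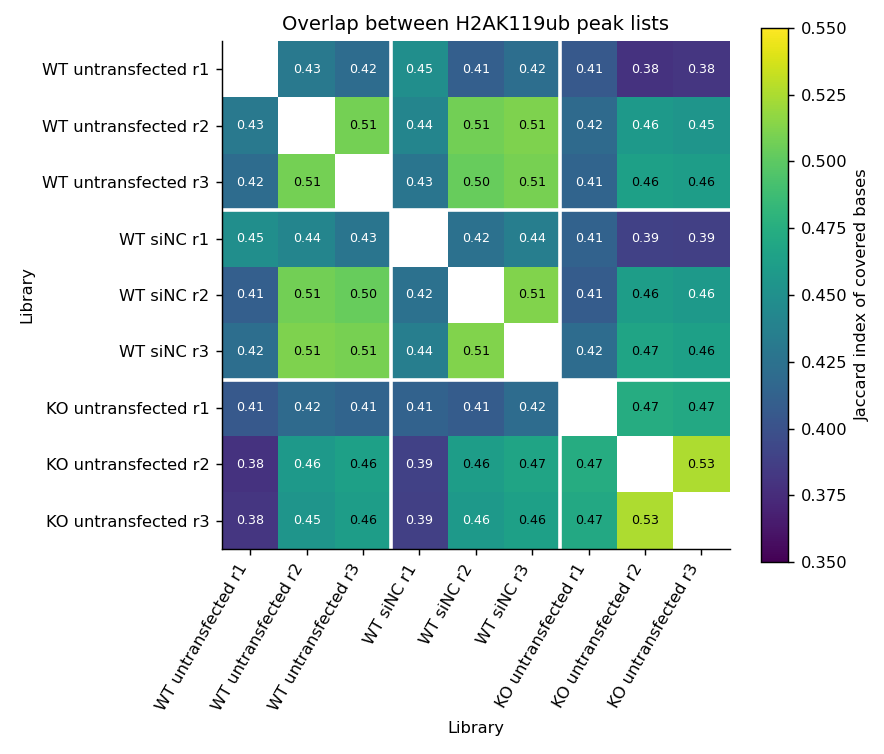
The heat map gives the Jaccard index of covered bases for each pair of H2AK119ub lists among 3 untransfected WT, 3 siNC WT and 3 untransfected Tet2 KO libraries, with libraries on both axes and colour from 0.35 to 0.55. The WT indices run from 0.421 to 0.512 within groups and from 0.411 to 0.511 between groups, and the rows of replicate 1 are lower in each group.

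Untransfected Tet2 KO libraries give a scale for this overlap. They shared indices of 0.379 to 0.463 with the untransfected WT libraries, with a mean of 0.426, and of 0.388 to 0.467 with the siNC WT libraries, with a mean of 0.430. The group lists, made of bases in peaks of at least 2 of 3 libraries, covered 12.3 Mb untransfected and 13.0 Mb with siNC. They shared 78.2% of the untransfected list and 74.4% of the siNC list. The list of the untransfected KO cells, 13.7 Mb long, covered 74.0% and 72.4% of these lists. At the level of genes the overlap was higher, because a window counts as covered wherever its peak lies. Windows reach 5 kb to each side of a TSS, and the share of windows covered in both libraries among those covered in either ran from 0.743 to 0.832 over the 15 WT pairs. The mean of these pairs was 0.781. With untransfected KO libraries the share was 0.740 to 0.816 for untransfected WT and 0.736 to 0.817 for siNC WT. Both means were 0.778, so the windows hardly set WT pairs apart from WT with KO pairs. Covered kb per window correlated with Pearson r of 0.514 to 0.618 within groups and 0.510 to 0.618 between groups, and the group means with r = 0.808 (12722 windows, which are not independent of each other and share the CpG content that the peaks follow).

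Regions that every library found differed from those of a single library in their sequence. Merging the peaks of the 6 libraries gave 56758 regions, of which 15437 (27.2%) held a peak in all 6 libraries and 16172 (28.5%) in 1 library. The median CpG density rose with each step in the number of libraries, at 16.7, 19.1, 22.0, 26.2, 30.7 and 45.6 per kb for regions of 1 to 6 libraries. The share within 5 kb of a TSS went from 18.1% to 46.0% and the median width from 261 to 636 bp. This width is that of the merged region, which can grow as more libraries add peaks. Within single libraries, peaks that met none in another library had a median width of 235 to 275 bp. Those that met a peak in all 5 others had 395 to 500 bp. The regions of all 6 libraries summed to 11.0 Mb. Peaks that met a peak in all 5 other libraries had a median fold enrichment of 4.67 to 5.00, whereas peaks that met none had 3.67 to 4.21. They made up 61.5% and 63.0% of the 2 short lists of replicate 1 and 41.1% to 43.3% of the 4 longer lists.

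**Figure D3:**
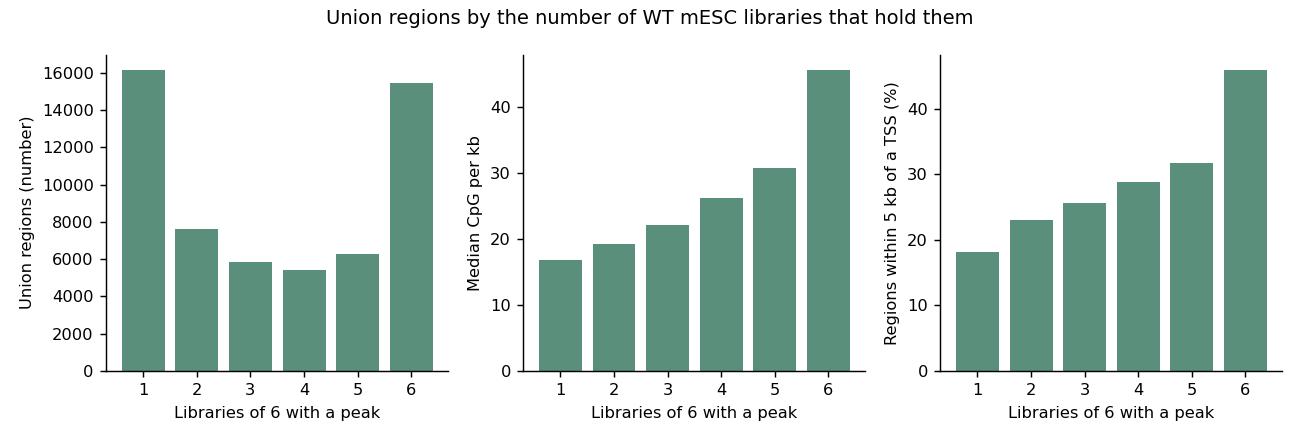
The 3 bar charts group the union regions of the 6 WT libraries by how many libraries hold a peak there (x axis, 1 to 6) and give their number, their median CpG per kb and the percent within 5 kb of a TSS. Regions of 1 and of 6 libraries are the most numerous, 16172 and 15437, and CpG density and closeness to a TSS are highest in regions of 6.

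Few regions followed the group labels. A peak in all 3 siNC libraries and in no untransfected library was found at 193 regions (0.340% of all), and the opposite at 198 (0.349%). Among the 5854 regions of exactly 3 libraries these made up 3.30% and 3.38%, and the other regions held libraries of both groups. Their median CpG densities, 21.1 and 19.8 per kb, were near those of other regions found in 3 libraries. At the Lmtk2 region shown above, chr5:144183085-144184147, the siNC libraries covered 0.823, 1.06 and 0.436 kb and the untransfected libraries were listed at 0. At the Rab3il1 region, chr19:10017905-10018958, the untransfected libraries covered 0.766, 0.960 and 0.865 kb and the siNC libraries were listed at 0. A region near the start of Usp43, a deubiquitylase gene, covered 0.582, 0.588 and 0.565 kb untransfected and was listed at 0 with siNC. None of these regions passed the test across regions in limma (adjusted p from 0.578 to 0.947 over the 10 regions with the largest difference in these classes). A value of 0 says only that no peak was listed, since the depth of the libraries is unknown.

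Across all gene starts no window was called. Of 12722 windows covered in at least 3 of the 6 libraries, limma on covered kb called 0 (0% of those tested; the call needs a p under 0.05 after Benjamini-Hochberg adjustment), with the smallest adjusted p at 0.603. At an unadjusted p under 0.05 there were 381 windows (2.99%), 241 (1.89%) with more covered sequence in the siNC libraries and 140 (1.10%) with less. The split by direction rested on single libraries. Of the windows at an unadjusted p under 0.05, 149 of 518 were higher without untransfected replicate 1, 162 of 387 without siNC replicate 2 and 189 of 426 without siNC replicate 3, but 608 of 709 without siNC replicate 1. With equal covered length in each library, 228 of 435 were higher. The groups did not overlap at 882 windows (6.93%), 581 (4.57%) with siNC higher and 301 (2.37%) with siNC lower. The median difference was 0.0187 kb. The 95% interval of a window's difference, before adjustment over windows, reached a median of 0.294 kb to each side. Differences well above that size could still go uncalled. At Map2k2 a difference of −0.727 kb had an adjusted p of 0.603 in limma. Across 40586 regions covered in at least 2 libraries, limma also called 0 (smallest adjusted p 0.578), with 1195 (2.94%) at an unadjusted p under 0.05, 737 of them higher with siNC. That number was 2710 without siNC replicate 1, with 2350 higher, and 2236 without untransfected replicate 1, with 496 higher. The groups did not overlap at 6.06% of regions, 3.97% with siNC higher and 2.09% lower.

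**Figure D4:**
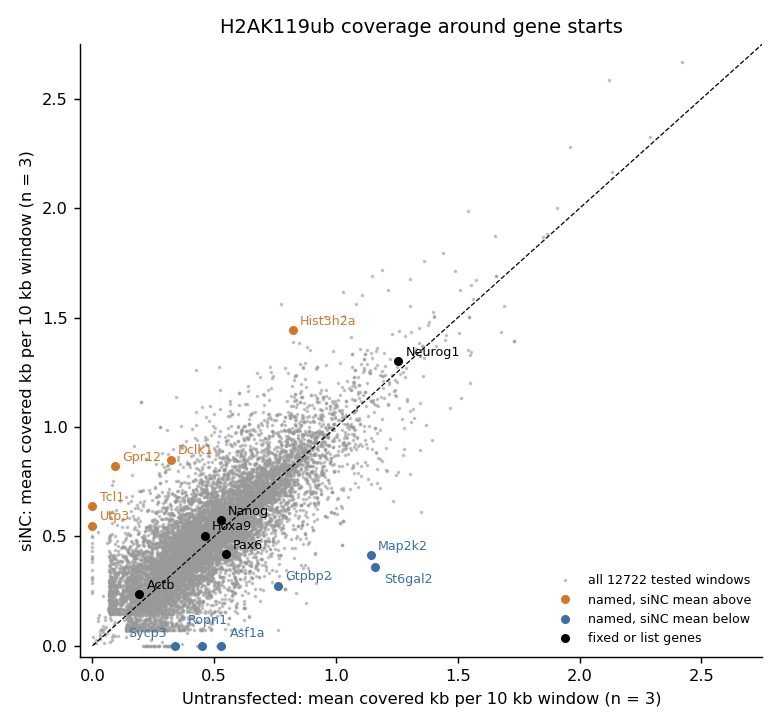
Each grey point is 1 of the 12722 tested windows of 10 kb, with the mean covered kb of the 3 untransfected libraries on the x axis and of the 3 siNC libraries on the y axis, and the dashed line marks equality. The named windows with the largest statistics lie off the line, such as Hist3h2a at 0.822 and 1.44 kb and Map2k2 at 1.14 and 0.415 kb, and none of them passed the adjusted test.

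The windows with the largest statistics are named as candidates only, since none was called. The window of Map2k2, chr10:81100915-81110914, covered 1.13, 1.08 and 1.21 kb in the untransfected libraries and 0.353, 0.368 and 0.524 kb with siNC. Map2k2 encodes the kinase MEK2, which is a target of the inhibitor kept in the medium of both groups. The groups did not overlap, and the difference was −0.727 ± 0.0804 kb (SE, adjusted p = 0.603 in limma), but with peaks of −log10 q of at least 5 alone it was −0.0610 kb. At Asf1a, a histone chaperone gene, the window chr10:53591757-53601756 covered 0.518, 0.560 and 0.503 kb untransfected and was listed at 0 in the 3 siNC libraries. At Sycp3, a gene of the synaptonemal complex, the untransfected values were 0.347, 0.339 and 0.336 kb, and the siNC libraries were again listed at 0. Ropn1, a sperm flagellum gene, had 0.333, 0.499 and 0.519 kb against 0 in each siNC library. Gtpbp2, a gene of ribosome rescue, was covered over 0.764, 0.696 and 0.821 kb untransfected and 0.245, 0.296 and 0.283 kb with siNC, and its difference of −0.486 kb shrank to −0.231 kb with the stricter peaks. St6gal2, a sialyltransferase gene, had 0.944, 1.33 and 1.20 kb against 0.215, 0.426 and 0.443 kb, a difference of −0.797 kb that turned to 0.361 kb with the stricter peaks.

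In the other direction, Dclk1, a gene of a microtubule-associated kinase, had the smallest adjusted p (0.603 in limma). Its window, chr3:55237364-55247363, covered 0.312, 0.314 and 0.337 kb untransfected and 0.900, 0.828 and 0.826 kb with siNC, a difference of 0.530 ± 0.0635 kb (SE). The libraries of each group lay close together there, and the difference was 0.334 kb with the stricter peaks. Hist3h2a, which encodes histone H2A itself, had 0.677, 0.911 and 0.879 kb untransfected and 1.51, 1.50 and 1.32 kb with siNC. Tcl1, an AKT coactivator expressed in mESCs, was listed at 0 in the untransfected libraries and covered over 0.839, 0.543 and 0.531 kb with siNC. Utp3, a gene of ribosomal RNA processing, was likewise listed at 0 untransfected and covered over 0.584, 0.643 and 0.420 kb. Tax1bp1, an autophagy receptor gene, and Gpr12, an orphan receptor gene, each had 1 untransfected library with a peak, of 0.251 and 0.275 kb, and siNC values of 0.622 to 0.821 kb and 0.696 to 0.979 kb. The difference at Tax1bp1, 0.670 kb, was 0.396 kb with an equal number of peaks in each library. That at Gpr12, 0.730 kb, was 0.371 kb in windows of 1 kb to each side.

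On a log scale, log2(covered kb + 0.1), 39 windows were called, 11 with siNC higher and 28 lower (0.307% of those tested). In all 39 windows one group was listed at 0 in its 3 libraries, which adds no spread to the model, so their p can be too small. They include Utp3, Tcl1, Asf1a, Ropn1 and Sycp3. When the 4 KO groups of mESCs shared the fit, 24 windows were called, 9 higher and 15 lower (0.189%), among them Map2k2 (adjusted p = 0.0110 in limma), Asf1a (0.00211) and Gtpbp2 (0.0385). The siRNA-treated KO groups, whose lists are far shorter, enter the spread of that fit.

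The HOX genes, the classical targets of the mark, had the same number of covered windows in both groups. Of 39 HOX windows, 34 were covered in at least 2 untransfected libraries and 34 in at least 2 siNC libraries (87.2%), against 55.7% and 55.6% of all windows. A high share was not particular to HOX genes, since the list of lipid uptake and sterol genes reached 92.0% in each group. The mean over HOX windows was 0.463 ± 0.0774 kb untransfected and 0.511 ± 0.132 kb with siNC (SD over libraries, n = 3). At Hoxa9 the untransfected libraries covered 0.472, 0.399 and 0.510 kb and the siNC libraries 0.526, 0.480 and 0.503 kb. At Hoxd13 they covered 0.363, 0.559 and 0.544 kb and 0.224, 0.431 and 0.547 kb. The most covered HOX windows, those of the neighbouring Hoxc10 and Hoxc5, overlap and share all their peaks, with 1.32, 0.793 and 1.30 kb against 0.713, 1.42 and 1.61 kb. Of 36 tested HOX windows the groups did not overlap at 1, against 6.93% of all windows. This was Hoxa10, at 0.229, 0.343 and 0.507 kb against 0.554, 0.921 and 0.715 kb (adjusted p = 0.999 in limma).

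Listed peaks filled a small part of each HOX cluster. Across the 4 clusters, listed peaks filled between 1.99% and 6.16% of the span from the first to the last gene, where they filled 0.365% to 0.641% of the genome. In Hoxb, 174 kb long, they covered 3.46, 6.87 and 7.29 kb untransfected and 5.27, 8.89 and 9.51 kb with siNC. In Hoxa, 105 kb long, they covered 4.06, 5.24 and 5.78 kb untransfected and 4.02, 5.96 and 5.94 kb with siNC. Replicate 1 had the least in both groups in these clusters. In Hoxd, replicate 1 and 3 of the untransfected cells lay together at 3.71 and 3.74 kb.

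Developmental regulators outside the HOX clusters had the same number of covered windows in both groups. Of 70 windows of developmental transcription factors, 63 (90.0%) were covered in at least 2 libraries of each group, with means of 0.492 ± 0.125 kb and 0.526 ± 0.110 kb (SD, n = 3). Neurog1 was covered over 1.35, 1.03 and 1.38 kb untransfected and 1.13, 1.36 and 1.42 kb with siNC. Pax6 had 0.437, 0.855 and 0.351 kb against 0.314, 0.549 and 0.396 kb. Otx2, a regulator of the exit from naive pluripotency, had 0.715, 1.66 and 0.901 kb against 0.901, 0.983 and 1.52 kb, and the 2 groups overlapped in each of these 3 genes. Dlx2, a forebrain gene outside the naming rule, had 0.544, 0.643 and 0.600 kb untransfected and 0.269, 0.281 and 0.259 kb with siNC (unadjusted p = 0.00218, adjusted p = 0.838 in limma), and was chosen after its values were seen.

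Pluripotency and housekeeping genes had peaks in part. Of 22 pluripotency windows, 14 and 13 were covered in at least 2 libraries. Nanog had 0.489, 0.539 and 0.551 kb untransfected and 0.507, 0.760 and 0.455 kb with siNC. Sox2 was lowest in replicate 1 of each group, at 0, 0.640 and 0.796 kb untransfected and 0.352, 1.02 and 1.08 kb with siNC, and its difference of 0.339 kb turned to −0.361 kb with an equal number of peaks in each library. Pou5f1 was low throughout, from 0.245 to 0.367 kb untransfected and from 0 to 0.421 kb with siNC. Of 28 housekeeping windows, 20 and 22 (71.4% and 78.6%) were covered in at least 2 libraries, against 55.7% and 55.6% of all windows. Peaks were thus listed near most of these genes as well, and their expression was not read here. Actb had 0.241, 0.335 and 0 kb against 0.253, 0.230 and 0.226 kb. Vcp, an ATPase of protein quality control, had 0.430, 0.459 and 0.429 kb untransfected and 0.475, 1.04 and 1.10 kb with siNC, without overlap (adjusted p = 0.999 in limma).

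**Figure D5:**
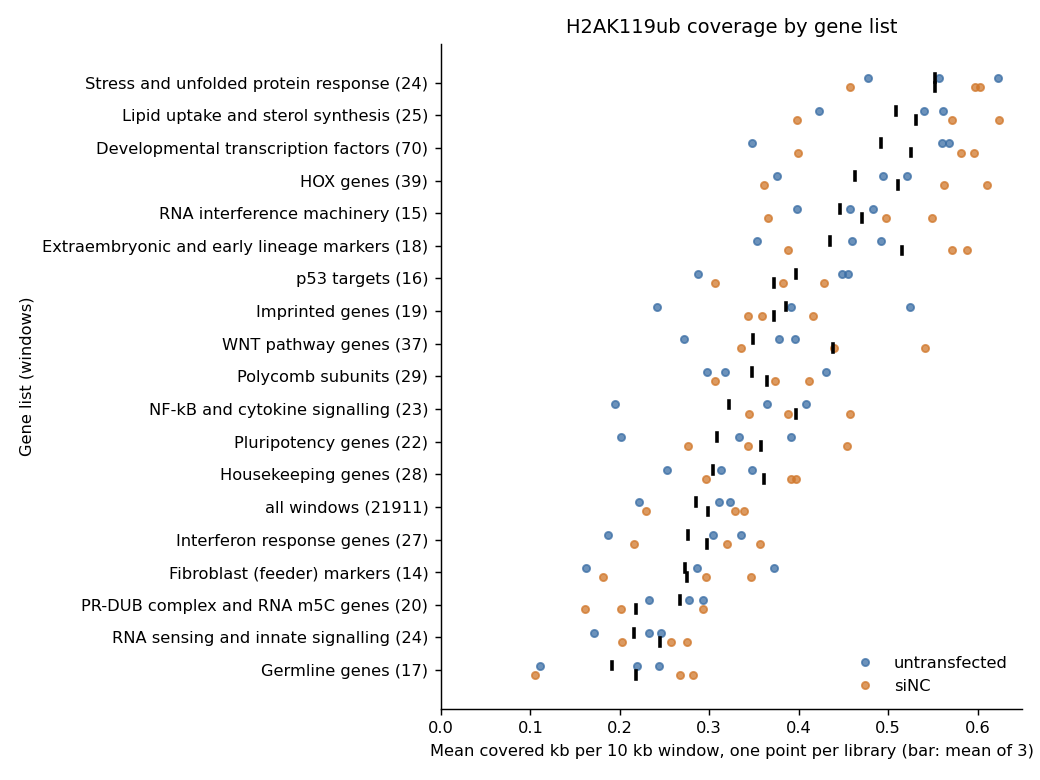
The plot gives for each gene list (number of windows in brackets on the y axis) the mean covered kb per 10 kb window in each library (x axis, 1 point per library, 3 per group) with a bar at each group's mean. The points of the 2 groups overlap in all 18 lists, and the lists of developmental transcription factors and HOX genes lie above the level of all windows, 0.285 kb untransfected and 0.299 kb with siNC. Other lists do so too, and the stress and lipid lists have the highest means, 0.553 and 0.508 kb untransfected and 0.552 and 0.531 kb with siNC.

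Since no window was called at all, the lists that a transfection could be thought to touch could hold no called member, and they are described only. In the RNA interference machinery 12 of 15 windows were covered in at least 2 libraries of each group, with means of 0.446 ± 0.0437 kb and 0.471 ± 0.0948 kb (SD, n = 3). Of its 13 tested members the groups did not overlap at 5 (Ago2, Ago4, Dgcr8, Dicer1 and Prkra), against 6.93% of all windows, with 3 higher and 2 lower. Dicer1, which cuts small RNAs to length, had 0.247, 0.344 and 0.359 kb untransfected and 0.466, 0.461 and 0.398 kb with siNC. Ago2, the slicing Argonaute, had 0.211, 0 and 0 kb against 0.215, 0.334 and 0.217 kb, which is near the length of 1 small peak. Ago4, another Argonaute, went the other way, at 0.250, 0.286 and 0.530 kb untransfected and 0, 0.239 and 0 kb with siNC. Tarbp2, a partner of Dicer1, was covered over 1.00, 0.938 and 0.878 kb untransfected and 0.917, 0.917 and 0.909 kb with siNC. The adjusted p was 0.999 in limma for each of these genes, and Ago4, Dgcr8 and Prkra were chosen after their values were seen.

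Among 24 genes of RNA sensing, 13 and 12 were covered in at least 2 libraries, and of the 13 tested, 0 had an unadjusted p under 0.05 in limma, against 2.99% of all windows. A list this short cannot tell 0 from that share. Myd88, an adaptor of Toll-like receptors, had 0.610, 0.575 and 0.503 kb untransfected and 0.552, 0.604 and 0.684 kb with siNC. Among 27 interferon response genes, 17 were covered in at least 2 libraries of each group. Ifnar2, a subunit of the interferon receptor, had 0.791, 0.320 and 0.289 kb against 0.966, 0.885 and 0.921 kb, without overlap (unadjusted p = 0.0194, adjusted p = 0.999 in limma). Isg15, an interferon-induced ubiquitin-like protein, ranged from 0.206 to 1.17 kb untransfected and from 0 to 1.18 kb with siNC. In the list of NF-kB and cytokine signalling the means were 0.323 ± 0.113 kb and 0.397 ± 0.0568 kb (SD, n = 3), with Socs3 at 0.220, 0.393 and 0.368 kb against 0.238, 1.01 and 0.415 kb.

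Stress and lipid genes were among the most covered lists in both groups. The unfolded protein and stress list averaged 0.553 ± 0.0728 kb untransfected and 0.552 ± 0.0828 kb with siNC (SD, n = 3). Hsph1, a heat shock protein gene, had 0.910, 0.971 and 0.819 kb against 0.898, 0.971 and 0.850 kb. The sterol and lipid list averaged 0.508 ± 0.0745 kb and 0.531 ± 0.118 kb. None of the 22 and 23 tested members of these lists had an unadjusted p under 0.05 in limma, against 2.99% of all windows, a share that such short lists cannot tell from 0. The 16 p53 target windows averaged 0.397 ± 0.0947 kb and 0.372 ± 0.0613 kb.

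The genes of the enzymes that write and erase the mark were read too. Of 29 windows of Polycomb subunits, 21 were covered in at least 2 libraries of each group. Pcgf1, a subunit of variant PRC1, had 1.20, 1.18 and 1.02 kb untransfected and 1.30, 1.29 and 1.17 kb with siNC. Rybp, another subunit of variant PRC1, had 0.936, 1.32 and 0.836 kb against 0.653, 0.743 and 0.768 kb, without overlap (adjusted p = 0.999 in limma). Its difference of −0.309 kb turned to 0.0260 kb with the stricter peaks and was −0.0330 kb in windows of 1 kb to each side. In the list of PR-DUB and RNA m5C genes, 14 of 20 windows were covered in at least 2 untransfected libraries and 8 with siNC, and the median difference was −0.0707 kb, the lowest of the 18 lists. Of its 13 tested members, 0 had an unadjusted p under 0.05 in limma, against 2.99% of all windows, which so few members cannot tell apart. Bap1 had 0.609, 0.832 and 0.630 kb untransfected and 0, 1.19 and 0 kb with siNC, so 1 siNC library was above the untransfected libraries and the other two were listed at 0. Mbd6 had 0.358, 0.427 and 0.433 kb against 0.316, 0.642 and 0.494 kb, and Tet2 was covered in 2 untransfected libraries and 1 siNC library, over 0.210 to 0.219 kb each.

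The WNT list, read because both media hold a GSK3 inhibitor, averaged 0.349 ± 0.0671 kb and 0.439 ± 0.103 kb (SD, n = 3), with the highest median difference of the 18 lists, 0.0955 kb. Its windows were covered in at least 2 libraries at 25 and 27 of 37. Fzd2, a WNT receptor, had 1.40, 1.55 and 0.739 kb against 0.979, 1.49 and 1.80 kb. Imprinted genes averaged 0.386 ± 0.142 kb and 0.373 ± 0.0383 kb, and germline genes, 0.192 ± 0.0709 kb and 0.218 ± 0.0985 kb, had the lowest untransfected mean of the 18 lists. Over the 18 lists the median difference was above 0 in 15 and below 0 in 3, against a median of 0.0187 kb over all tested windows. That median was −0.0170 kb without untransfected replicate 1. At an unadjusted p under 0.05 in limma, the developmental list held 2 higher and 3 lower of 66 tested, and the HOX list 2 higher of 36. Housekeeping genes held 2 higher of 21, germline genes 2 lower of 8, and WNT genes 1 higher and 1 lower of 28. The pluripotency, Polycomb, interferon and early lineage lists held 1 higher each, RNA interference 1 lower, and the remaining lists 0. The share over all windows was 2.99%, and a difference from it was not tested.

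The labelled cell type was set against markers. Of 7 mESC marker windows, 5 were covered in at least 2 libraries of each group, with sums of 1.06 to 2.66 kb untransfected and 2.11 to 3.11 kb with siNC. Of 9 markers of the fibroblast feeders, 3 and 4 were covered in at least 2 libraries, with sums of 1.36 to 2.62 kb and 1.36 to 2.56 kb, and Col3a1, Pdgfrb, Dcn, Lum and Postn were listed at 0 in all 6 libraries. The 5 primitive endoderm markers summed to 1.35 to 2.87 kb and 2.19 to 3.01 kb, with Dab2 at 0, and the 3 trophectoderm markers to 1.10 to 1.80 kb and 1.82 to 1.91 kb. Cdx2, a trophectoderm regulator, had 0.441, 0.916 and 0.810 kb untransfected and 0.972, 1.09 and 1.12 kb with siNC, without overlap (adjusted p = 0.999 in limma). The mark lies at silent as well as at active genes, so these windows cannot name a cell type, and the part of other cells in the results was not tested.

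The regions with the most covered sequence lay away from gene starts, and some of them were almost the same in the 6 libraries. Those near Esp38, Smgc and Cacnb4 varied more, over 3.39 to 3.79 kb, 2.92 to 3.37 kb and 2.14 to 2.42 kb. The repeat region on chromosome 17, chr17:13550668-13553138, is 97.8% soft-masked repeat without a CpG, and its covered length was 2.47, 2.46 and 2.47 kb untransfected and 2.44, 2.45 and 2.45 kb with siNC. A region on chromosome 13 near Zfp825, 99.8% repeat, was covered over 2.14 to 2.19 kb untransfected and 2.16 to 2.18 kb with siNC. The widest region, chr1:24611632-24616118, is 4487 bp long, and 99.2% of its 21-base words occur in the mitochondrial genome. Its covered length was 4.48 to 4.49 kb untransfected and 4.46 to 4.47 kb with siNC, with a fold enrichment of 2.17 to 2.18. This coverage was not particular to WT mESCs. The chromosome 17 repeat was covered over 97.5% to 99.2% in KO siNC and 98.8% to 98.9% in WT HSPC libraries. For the Zfp825 region the values were 99.9% to 100% and 100%. The widest region had 97.4% to 98.1% with KO siNC but 64.5% to 81.5% in HSPCs, and a region near Smgc 15.0% to 52.2% in HSPCs. Of the 6 regions with the most covered sequence, 5 also held a peak in both BAP1 libraries, whereas 663 of the 15437 regions of all 6 libraries (4.29%) did so. At the repeat regions of chromosomes 17 and 13 the BAP1 peaks filled 97.7% to 98.4% and 100% of the region. The part of sequence that maps to several places in these values was not tested.

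Peak height was added after seeing the data. Over the 15437 regions of all 6 libraries, the median of the highest fold enrichment was 4.99, 4.96 and 4.96 in the untransfected libraries and 4.86, 4.66 and 4.81 with siNC, so each siNC library lay below each untransfected library. In limma on log2 values 0 regions were called, and 1063 had an unadjusted p under 0.05, 961 of them with siNC lower (6.23% of those tested). The fold is taken within each library against its own background, and the spike-in is not part of it.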

How the data were processed

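H2AK119ub CUT&Tag libraries of WT mESCs (3 untransfected, 3 siNC) were analysed, grouped by their labels. The authors trimmed reads with Trimmomatic 0.39, mapped them with Bowtie2 2.4.1 to mm10 together with the Drosophila genome, removed duplicates with Picard and called broad peaks per library with MACS2 (broad cutoff 0.01). The deposited fold enrichment compares a peak with the local background of its library, the deposited −log10 p and −log10 q come from the same caller, and the deposited score is the −log10 q rescaled to whole numbers. Spike-in normalization acts on signal and is not in the lists. Sequencing depth is unknown.

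Covered bases on autosomes, X and Y were computed per library, per union region and in windows of 5 kb to each side of each TSS (GENCODE vM21, 21911 protein-coding genes), using Python 3.11.15, NumPy 2.4.6 and pandas 2.3.3. Windows covered in at least 3 libraries and regions in at least 2 went into limma (version 3.58.1, under R 4.3.3), with Benjamini-Hochberg adjustment. Library values were compared with exact permutation tests. Simulated data served to check the interval functions (bedtools 2.31.1), the permutation test (SciPy 1.17.1) and the limma step. Figures used matplotlib 3.10.9.

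Named genes are the 6 largest statistics in each direction (without predicted genes, at least 20 kb apart), the 2 most covered members of each of 18 lists, and a fixed set, of which some are not reported here. The libraries and gene lists were chosen with earlier results of these data known. Alternatives covered scale, peak threshold, peak number, filter, window size, variance model, pooled groups, replicate number and leaving out each library.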

Additional observations from a re-analysis of the deposited data

Results flagged for a closer look

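The control siRNA contrast was set against the same contrast in Tet2 KO mESCs, whose siNC lists were known to be short beforehand. Covered sequence was 13.7 ± 3.55 Mb untransfected and 14.4 ± 3.79 Mb with siNC in WT mESCs, but 15.1 ± 3.05 Mb untransfected and 3.47 ± 1.43 Mb with siNC in Tet2 KO mESCs (SD, n = 3 each). The 3 KO siNC libraries, from 1.82 to 4.30 Mb, lay below all 9 other libraries of these groups. The KO libraries with siMbd6 (2.36, 4.21 and 5.64 Mb) and siNsun2 (1.90, 3.86 and 4.25 Mb) were short as well. The log2 difference was 0.06 in WT and −2.20 in KO cells, and the WT value exceeded the KO value by 2.27 (exact two-sided permutation test over 400 arrangements, p = 0.025). The arrangements exchanged genotype labels within the untransfected and within the siNC libraries. This p thus refers to no genotype effect in either group, and the siNC contrast was not tested apart from that. The KO contrast alone had the smallest p that 3 against 3 allows (exact permutation test, p = 0.1). Without untransfected WT replicate 1 the difference was 2.03 (exact permutation test, p = 0.055). The siNC libraries of WT and KO cells shared Jaccard indices of 0.0719 to 0.155. Spike-in peaks numbered 59, 88 and 79 in the untransfected KO libraries and 47, 88 and 70 in the KO siNC libraries. Depth is unknown, and the siRNA, the reagent and the date of the experiment cannot be told apart in the KO groups either. The cause of the short KO lists was not tested.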

How the results depend on the processing

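No window and no region was called under equal covered length, an equal number of peaks, no filter, an intensity trend or any of the 6 fits that leave out a library, and no window with 1 kb to each side. On the log2 scale 39 windows and 319 regions were called, each with one group at 0. With all 6 mESC groups in one fit 24 windows were called. With peaks of −log10 q of at least 5, 1 window (Prune2) and 1 region were called, from 6974 windows and 16431 regions tested, and the differences in the share near a TSS and in repeats were −0.0929 and 0.0062 percentage points. Leaving out each library in turn moved the log2 difference in covered length between −0.17 and 0.30, that in peak number between −4274 and 3684, in the share near a TSS between −1.47 and 1.81 percentage points, in repeats between −0.982 and 0.393 and in GC between −0.584 and 0.0466 percentage points, in CpG density between −2.12 and 0.894 per kb in spike-in peaks between −1.33 and 11.3, in median width between 11.5 and 32.8 bp and in median fold enrichment between −0.302 and −0.0521. The difference between genotypes moved between 1.85 and 2.51. The shared part ran from 55.5% to 89.0% of the untransfected list and from 51.6% to 86.5% of the siNC list, as a list left with 2 libraries needs both of them. The cause of the other changes was not tested.

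With the replicate number as a block, 0 windows and 0 regions were called, 591 windows had an unadjusted p under 0.05 and the log2 difference in covered length stayed at 0.06 (exact sign-flip test, p = 0.5). Deviations from the group means of same-numbered libraries correlated with r = 0.160, 0.0366 and 0.0284, and the main tests left them unpaired. Each replicate 1 correlated best with the other replicate 1, and replicates 2 and 3 did not correlate best with their own number. Replicate 1 with a replicate 2 or 3 of the other group gave r from −0.0900 to −0.0760. In each KO mESC group replicate 1 again had the fewest peaks, 26316 untransfected, 4251 with siNC, 5606 with siMbd6 and 4597 with siNsun2. Whether same-numbered libraries were processed together is not given in the labels and was not tested. Of 913 values of 64 named windows under alternatives, 8 passed the adjusted test and 32 others moved by more than the pooled SD of the 2 groups, with values on the log2 scale not compared in size. Depth is unknown, which limits what a value of 0 can show.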

Other observations

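Chromosome 8 held 1.53 to 1.66 times its share of the genome in covered sequence in the 3 untransfected libraries and 1.56 to 1.65 times in the 3 siNC libraries. The ratio was 1.49 to 1.59 in the untransfected Tet2 KO mESCs and 1.04 to 1.15 in the 3 WT HSPC libraries with shNC, and it was 0.306 to 0.362 for the X chromosome in the 6 WT mESC libraries. Chromosome 11 was close to chromosome 8, at 1.50 to 1.51 times its share untransfected and 1.53 to 1.56 times with siNC. Of the protein-coding windows on chromosome 8, 65.3% to 74.8% were covered in each of the 6 libraries, and on chromosome 12, 56.3% to 70.5%. Over all protein-coding windows, 55.7% were covered in at least 2 untransfected and 55.6% in at least 2 siNC libraries, which is a count by group and not by library.

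Regions with a BAP1 peak in both BAP1 libraries of WT mESCs numbered 1032. H2AK119ub peaks touched 70.4%, 84.5% and 84.5% of them in the untransfected libraries and 70.2%, 85.7% and 83.4% with siNC, lowest in replicate 1 of each group. These regions took up 2.00% to 2.65% of the H2AK119ub-covered bases of a library. Soft-masked repeats made up 83.0% and 83.4% of the covered bases in BAP1 replicates 1 and 2. Only 5.71% and 5.45% of those bases lay within 5 kb of a TSS. How much of the overlap follows from this repeat content was not tested.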
